A study of Mus musculus with 2 samples.

Results

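The 10 genes described here make, move, sense and destroy retinoic acid: *Aldh1a2*, *Rdh10*, *Cyp26a1*, *Dhrs3*, *Rara*, *Rarb*, *Rarg*, *Crabp1*, *Crabp2* and *Stra6*. They were chosen by name for their place in the pathway, with earlier results of these data known. They were found on the array through the RefSeq accession of each probe, and they are 10 of 20281 genes that such an accession names. Their RNA was measured in a *Dullard*-/- (homozygous) and a *Dullard*+/- (heterozygous) mouse embryo at E7.5, 1 whole embryo of each genotype on 1 array each, labelled as C57BL/6. Both embryos carry at least 1 mutant *Dullard* allele, no wild-type embryo was analysed here, and *Dullard* (*Ctdnep1*) encodes a phosphatase of the nuclear envelope and endoplasmic reticulum. A full deletion and a *LacZ* replacement of part of the gene are both called the mutant allele in this study, and the sources used here do not say which of them these embryos carried or whether they were littermates.

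Retinol from the mother's circulation is taken into cells by the membrane receptor STRA6. RDH10 oxidises it to retinaldehyde, a step that DHRS3 reverses, and ALDH1A2 then makes retinoic acid, which acts as a ligand on nuclear receptors. CYP26A1 oxidises retinoic acid to products that are cleared, and the balance of ALDH1A2 in mesoderm and CYP26A1 in neighbouring tissue shapes the front and hind parts of the early mouse embryo. The receptors RARA, RARB and RARG pair with retinoid X receptors on direct repeats of a short DNA motif, and CRABP1 and CRABP2 carry retinoic acid in the cytoplasm.

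Each array was a 1-colour whole-genome design, and both lay on the same slide and were read in the same scan, which leaves no slide or scan effect to fit. Control spots aside, 29310 of 43020 spots were well above background in the *Dullard*-/- embryo (the homozygote) and 31242 in the *Dullard*+/- embryo (the heterozygote). Signals are given as the background-subtracted brightness of a spot. Fold changes are *Dullard*-/- over *Dullard*+/- after each signal was divided by the 75th percentile of its array, 264 for the homozygote and 286 for the heterozygote. Each genotype is a single embryo, so no difference has a replicate check, no test was run, and every value describes these 2 embryos. The error after a log2 fold change comes from probes that are spotted many times. It is the SD between their spots at the brightness in question, divided by the root of the number of probes where a gene has several, and it leaves out the spread between embryos. Precision is limited by the number of arrays. The *Dullard* probe gave 144 in the homozygote and 672 in the heterozygote (log2 fold change -2.11 ± 0.06). The full deletion takes out all exons and so the target of this probe. Where the probe lies relative to the part replaced in the *LacZ* allele is not known here. The probe was still well above background in the homozygote. In this study, in situ hybridization and Q-PCR found none of its mRNA in *Dullard*-/- embryos. The source of the remaining signal was not tested.

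All 10 genes were measured. Of their 12 probes, 11 were well above background in both embryos, and the other, the second probe of *Rarb*, was not well above background in either. Of the 10 genes, 5 were higher in the homozygote and 5 were lower, beside 52.0% and 48.0% of all 14770 genes measured in both embryos. Their median log2 fold change was -0.06, against 0.01 over all genes. None was past 2-fold, where 0.894% of all genes were past 2-fold in the higher direction and 0.765% in the lower. *Cyp26a1* and *Dhrs3* were at least 1.5-fold higher and none was 1.5-fold lower, beside 3.92% and 3.37% of all genes. Without scaling between the arrays the median over all genes moved to -0.10, the share of genes past 1.5-fold that were higher moved to 33.2% against 53.8% with scaling, and 1 member, *Stra6*, was past 1.5-fold lower. RNA of a whole embryo cannot tell fewer cells of a type from less RNA per cell.

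**Figure D1:**
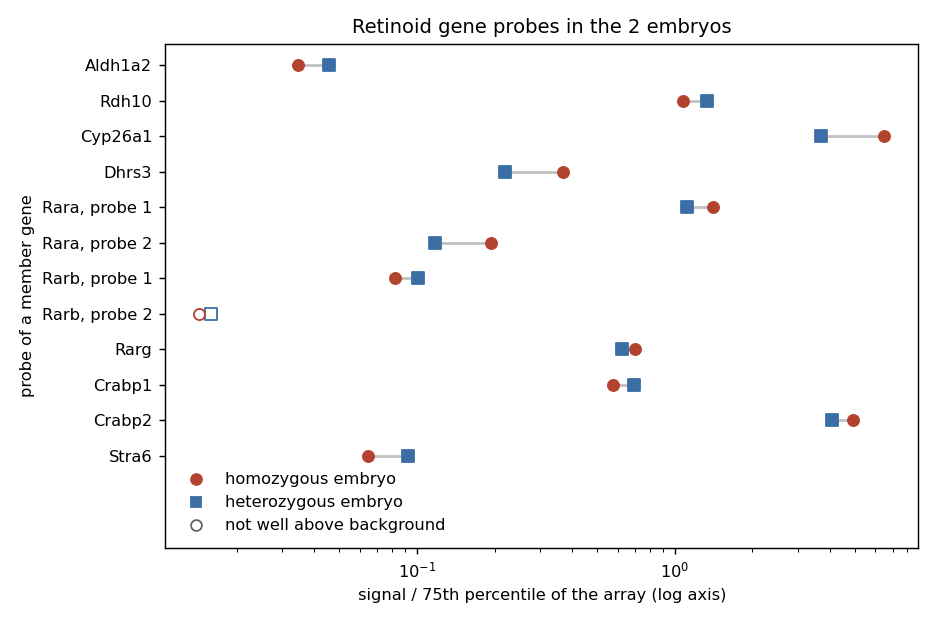
Signal of each of the 12 probes divided by the 75th percentile of the array (horizontal log axis), with circles for the *Dullard*-/- (homozygous) and squares for the *Dullard*+/- (heterozygous) embryo, 1 embryo each, and open symbols where a probe is not well above background in either. Symbols can be compared along a line but not between probes; the widest gap of a filled pair belongs to *Cyp26a1*, at 6.50 in the homozygote and 3.68 in the heterozygote.

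The highest of the 10 were the gene that removes retinoic acid and the one that draws off its precursor. *Cyp26a1* (NM_007811), the hydroxylase that breaks down retinoic acid, gave 1719 in the homozygote and 1053 in the heterozygote. This was 1.76-fold higher after scaling, a log2 fold change of 0.82 ± 0.05. Over all genes 1.67% had a larger log2 fold change, and of the 3693 genes in the brightest quartile 10 had one. In that quartile 0.704% of genes were at least 1.5-fold higher. *Dhrs3* (NM_011303), the reductase that turns retinaldehyde back to retinol, gave 97.0 in the homozygote and 63.0 in the heterozygote, 1.66-fold higher (0.73 ± 0.10). It lies in the second-dimmest quartile, where 4.79% of genes were at least 1.5-fold higher. Both genes rest on a single probe.

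The promoter of *Cyp26a1* carries the kind of element through which retinoic acid receptors are known to bind DNA, and so does that of *Rarb*. A search was made, on both strands, for a pair of half-sites in the same direction with 5 bases between them, each half-site being AGGTCA or the variant AGTTCA or the variant GGGTCA or the variant GGTTCA. RefSeq promoters (build GRCm38.p6, 250 bases before to 50 after a start) were found for 8 of the 10 genes, 17 promoters in all, with *Crabp2* and *Rdh10* named only. Of these genes 2 had a match, *Cyp26a1* and *Rarb*. Over all genes with a promoter 31 of 27025 had one, by promoter 32 of 32851, or 0.0974%. Both members are known to be induced by retinoic acid and were chosen by name, so these counts are no test of the members. With 2 bases between the half-sites none of the 8 genes had a match, and 84 of all 27025 genes did, or 0.268% of all promoters. The matches are shown with the half-sites in capitals, read on the strand of the gene for *Rarb* and on the opposite strand for *Cyp26a1*.
Rarb: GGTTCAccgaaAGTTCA
Cyp26a1: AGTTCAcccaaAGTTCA
Both end in the half-site AGTTCA, and both lie close to the start, from 53 to 37 bases before it in *Rarb* and from 32 to 16 bases before it in *Cyp26a1*. The promoters in full are given on the strand of the gene, chr14:16575427-16575726 (minus strand) for *Rarb* and chr19:37697558-37697857 (plus strand) for *Cyp26a1*, with the same half-sites in capitals.
Rarb promoter: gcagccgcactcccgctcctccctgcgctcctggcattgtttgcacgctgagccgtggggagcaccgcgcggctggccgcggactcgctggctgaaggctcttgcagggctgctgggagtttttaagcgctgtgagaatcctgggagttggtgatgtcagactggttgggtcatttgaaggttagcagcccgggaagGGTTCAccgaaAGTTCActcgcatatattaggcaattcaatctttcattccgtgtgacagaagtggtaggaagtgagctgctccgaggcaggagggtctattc
Cyp26a1 promoter: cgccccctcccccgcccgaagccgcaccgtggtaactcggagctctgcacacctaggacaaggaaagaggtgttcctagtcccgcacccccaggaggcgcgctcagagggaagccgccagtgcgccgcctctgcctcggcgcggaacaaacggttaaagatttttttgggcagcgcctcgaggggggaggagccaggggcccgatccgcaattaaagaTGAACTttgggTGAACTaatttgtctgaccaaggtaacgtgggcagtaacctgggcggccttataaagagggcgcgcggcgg
A match is a description of the letters and does not show that the site was bound in these embryos. Of the members that share the element, *Cyp26a1* was at 0.82 ± 0.05 and *Rarb* at -0.29 ± 0.20 on the log2 scale. The difference of *Rarb* was less than 2 times its error, so a contrast between them is weakly measured.

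The genes of synthesis and uptake were lower. *Aldh1a2* (NM_009022), the dehydrogenase that makes retinoic acid in mesoderm, gave 9.09 in the homozygote and 13.0 in the heterozygote, which is 1.32-fold lower (log2 fold change -0.40 ± 0.25). These signals are near the limit of the arrays, where the faintest signal still well above background was 7.27 in the homozygote and 6.20 in the heterozygote. With normexp background correction, whose offset of 50 pulls dim probes toward no difference, *Aldh1a2* was at 0.02 and its direction turned. *Rdh10* (NM_133832), which makes retinaldehyde, gave 286 in the homozygote and 383 in the heterozygote, 1.24-fold lower (-0.31 ± 0.06). *Stra6* (NM_001162476), the receptor for retinol bound to its carrier, gave 17.0 in the homozygote and 26.3 in the heterozygote, 1.43-fold lower (-0.52 ± 0.22). It is dim as well, and in the dimmest quartile of genes 11.6% were lower still. It was at -0.06 with normexp.

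**Figure D2:**
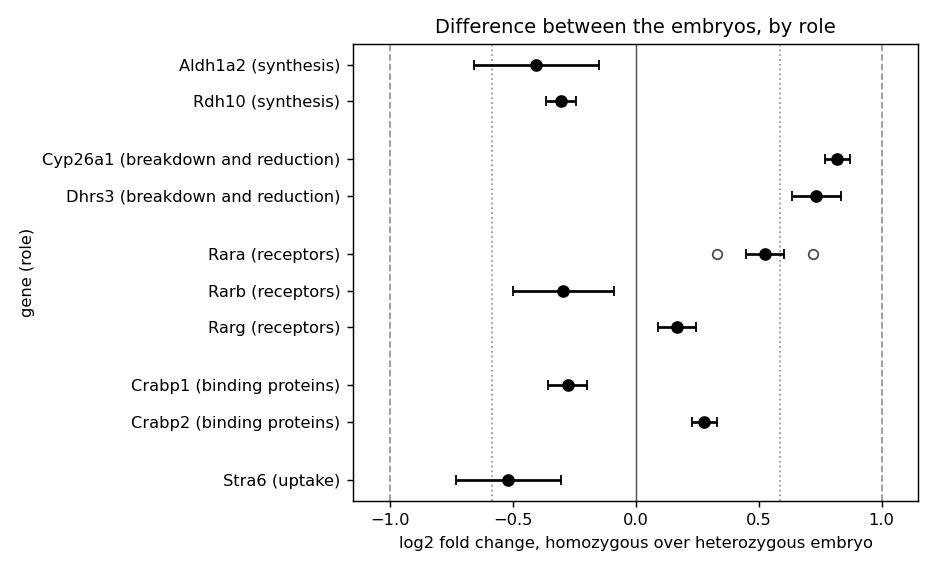
Log2 fold change of the 10 genes (horizontal axis, *Dullard*-/- over *Dullard*+/-), grouped by role, 1 embryo per genotype. Filled points are the mean over probes, bars the error between replicate spots, open points the pair of *Rara* probes, dotted lines 1.5-fold and dashed lines 2-fold; *Cyp26a1* and *Dhrs3* lie beyond 1.5-fold, at 0.82 and 0.73.

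Of the receptors, *Rara* and *Rarg* were higher in the homozygote and *Rarb* was lower, by less than 2 times its error. *Rara* (NM_001177302), the most widely expressed of these receptors in the mouse, has a pair of probes, both higher in the homozygote. The brighter gave 374 in the homozygote and 321 in the heterozygote, 1.26-fold higher (log2 fold change 0.33 ± 0.06). The dimmer gave 51.0 in the homozygote and 33.5 in the heterozygote, 1.65-fold higher (0.72 ± 0.15). Their mean was 0.53 ± 0.08. The probes differed by 0.39 on the log2 scale, beside a pooled SD of 0.29 between probes of the same gene over 3747 genes. Both probes carry the same accession, so they name no separate isoform.

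*Rarg* (NM_011244), the receptor of the caudal embryo and later of cartilage and skin, gave 185 in the homozygote and 178 in the heterozygote, 1.12-fold higher (0.17 ± 0.08). *Rarb* (NM_011243), whose own transcription is induced by retinoic acid, gave 21.8 in the homozygote and 28.9 in the heterozygote on its brighter probe, 1.23-fold lower (-0.29 ± 0.20). Its other probe gave 3.78 in the homozygote and 4.56 in the heterozygote and was not well above background in either, so no fold is drawn from it. With normexp the brighter probe was at -0.02. *Rarg* has 1 probe and kept its sign under all 12 alternatives, some of which cannot move such a gene. It came closest to no difference without scaling, at 0.05.

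The binding proteins differed in sign by like amounts. *Crabp2* (NM_007759), which hands retinoic acid to the nuclear receptors, gave 1303 in the homozygote and 1161 in the heterozygote, 1.21-fold higher (log2 fold change 0.28 ± 0.05). *Crabp1* (NM_013496), thought to hold retinoic acid in the cytoplasm, gave 152 in the homozygote and 199.7 in the heterozygote, 1.21-fold lower (-0.28 ± 0.08). Each has 1 probe, and each kept its direction under all 12 alternatives. Those on the filter, on several probes and on outlier spots cannot move such a gene.

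The differences were set beside 2 measures of spot error and beside the spread between probes of a gene. Between replicate spots the SD of the log2 fold change at the brightness of the 11 member probes ran from 0.05 to 0.25, and the difference of 8 of the 10 genes was over 2 times its own error. The exceptions were *Aldh1a2* and *Rarb*. The error that the scanner software gives for each spot was larger, from 0.20 to 0.36 on the log2 scale for these probes. By that error 4 of the 10 genes were over 2 times it: *Cyp26a1* at 4.01 times, *Dhrs3* and *Rara* at 3.55 times each, and *Stra6* at 2.04 times. For *Rara* the errors of its pair of probes, 0.20 and 0.21, were combined to 0.15, which is smaller than that of any single probe. *Rarg*, at 0.817 times, was within it. The pooled SD between probes of the same gene was 0.29. The difference of 7 of the 10 genes was larger than that, *Rarb* and *Rdh10* only just, and those of *Crabp1*, *Crabp2* and *Rarg* were not. None of the counts against these errors was made over all genes, so they show nothing particular to the 10 genes.

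**Figure D3:**
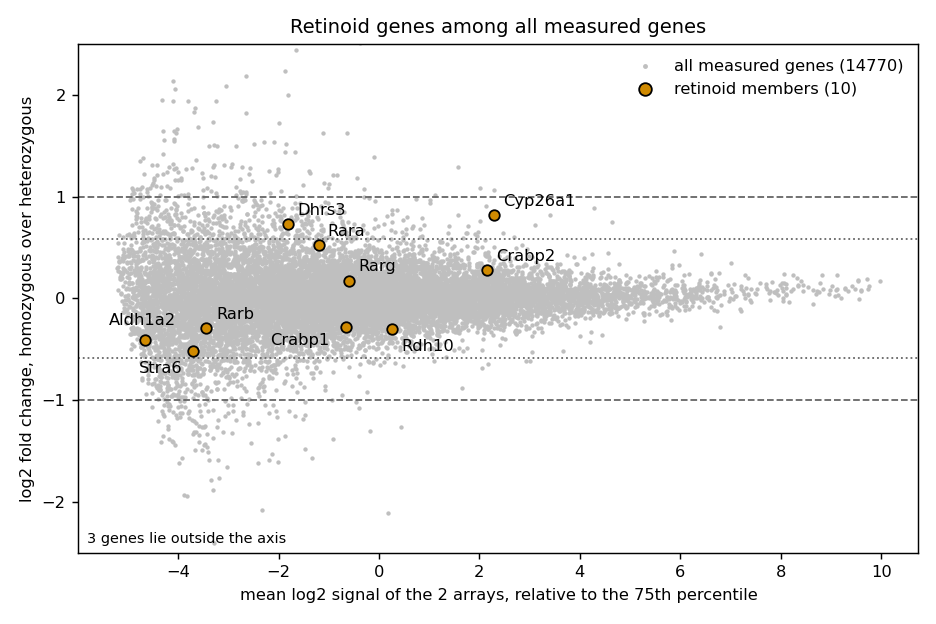
Log2 fold change (vertical axis, *Dullard*-/- over *Dullard*+/-) against the mean log2 signal of both arrays relative to the 75th percentile (horizontal axis) for the 14770 genes measured in both embryos, with the 10 retinoid genes as large points. Dotted lines mark 1.5-fold and dashed lines 2-fold; the spread widens toward dim genes, and *Cyp26a1*, at 0.82, lies above nearly all genes of its brightness.

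The other genes of the pathway, 44 in 6 lists, were described by the same values. Of these, 30 were measured in both embryos, 15 higher and 15 lower, and the median log2 fold change was 0.01. Only *Rdh11* was past 1.5-fold. This reductase of retinaldehyde gave 131 in the homozygote and 80.9 in the heterozygote, 1.75-fold higher (0.81 ± 0.09). Among the other oxidoreductases *Rdh13* was at -0.51 ± 0.09, *Rdh7* at 0.49 ± 0.21 and *Adh5* at -0.37 ± 0.21. The relatives of *Cyp26a1* were nearer to no difference than it was, with *Cyp26c1* at 0.34 ± 0.20, *Cyp2s1* at 0.18 ± 0.12 and *Cyp26b1* at 0.12 ± 0.14. Of the partners of the receptors, *Rxrb* was at 0.12 ± 0.04, *Rxra* at 0.08 ± 0.16 and *Rxrg* at -0.23 ± 0.09, whose probes gave -0.45 and -0.01.

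Among genes of retinol transport, *Stra6l*, a second receptor for the retinol carrier, gave 15.9 in the homozygote and 23.7 in the heterozygote, a log2 fold change of -0.46 ± 0.23. *Rbp4*, the carrier itself, was at -0.16 ± 0.04 and *Retsat* at 0.08 ± 0.12. Of the 4 genes on the list of other retinal dehydrogenases, *Aldh8a1* was measured in both embryos, at -0.11 ± 0.18. Of 8 coregulators of nuclear receptors none was past 1.5-fold by the probes well above background in both embryos. They ran from *Ncor1*, a corepressor, at -0.31 ± 0.08 (probes at -0.06 and -0.55) to *Ep300*, an acetyltransferase, at 0.03 ± 0.14. A probe of *Ncoa1* that was well above background in the heterozygote alone was 3.38-fold lower in the homozygote and is left out of that count.

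Some pathway genes were well above background in 1 embryo alone, so their difference is given as a bound on the signals, without error. The dim value in it was the probe's own signal or, where that was lower, the faintest signal that array held well above background. That faintest signal is no fixed limit, since a probe of *Ncoa1* at 8.55 in the homozygote was not well above background. By the scanner software the error of these log2 fold changes ran from 0.39 (*Bco2*) to 1.46 (*Aldh1a3*), with 0.52 for *Rdh9*, so the true difference can be smaller than the bound. In the homozygote alone, *Rbp7* (13.9 against 4.87 in the heterozygote) was at least 2.43-fold higher, *Adh4* (9.86 against 5.48) at least 1.72-fold and *Rdh9* (8.57 against 4.27) at least 1.5-fold. *Rbp7* binds retinol, and the other pair are oxidoreductases. In the heterozygote alone, *Bco2* (7.16 in the homozygote and 16.8 in the heterozygote), an enzyme that cleaves carotenoids, was at least 2.14-fold lower in the homozygote. *Aldh1a3*, which makes retinoic acid in head structures later on, gave 1.52 in the homozygote and 8.72 in the heterozygote, at least 1.11-fold lower. *Aldh1a1* and *Aldh1a7* were not well above background in either embryo, so among *Aldh1a1*, *Aldh1a2* and *Aldh1a3*, the retinaldehyde dehydrogenases of the mouse embryo, *Aldh1a2* was the one measured in both.

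Genes that respond to retinoic acid elsewhere in the mouse embryo were lower for the most part. Of 18 on that list 13 were measured in both embryos, 3 higher and 10 lower, and the median log2 fold change was -0.26. Of these 13, 5 were at least 1.5-fold lower and 1 higher, and 3 were at least 2-fold lower and none 2-fold higher. Without its 7 Hox genes, of which 3 were measured, the list had 3 higher and 7 lower and a median of -0.19. *Cdx1*, a caudal homeobox gene, gave 19.6 in the homozygote and 52.7 in the heterozygote, 2.49-fold lower (-1.32 ± 0.18). *Hoxb2*, a homeobox gene of the hindbrain, gave 15.3 in the homozygote and 39.7 in the heterozygote, 2.40-fold lower (-1.26 ± 0.20). *Meis1*, a cofactor of Hox proteins, was at -0.74 ± 0.10.

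*Cdx1* and *Hoxb2* lie in the dimmest quartile, where 2.19% of genes were at least 2-fold lower. With normexp they were inside 2-fold, with *Cdx1* at -0.42 and *Hoxb2* at -0.39. *Hoxb1*, an early target of retinoic acid in the mouse hindbrain, has a probe that is spotted 10 times. It averaged 1.92 in the homozygote and 6.36 in the heterozygote and was not well above background in either, so no fold is given. The list went beyond 1.5-fold higher for *Tgm2* alone, a transglutaminase that retinoic acid induces in many mouse cells. Its probes were at 0.48 and 0.73 on the log2 scale. Members that retinoic acid is known to induce include *Rarb*, *Cyp26a1* and *Dhrs3*, which were at -0.29, 0.82 and 0.73. These need not be all the members that respond to it, and the 10 went both ways, from *Stra6* at -0.52 to *Cyp26a1*.

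**Figure D4:**
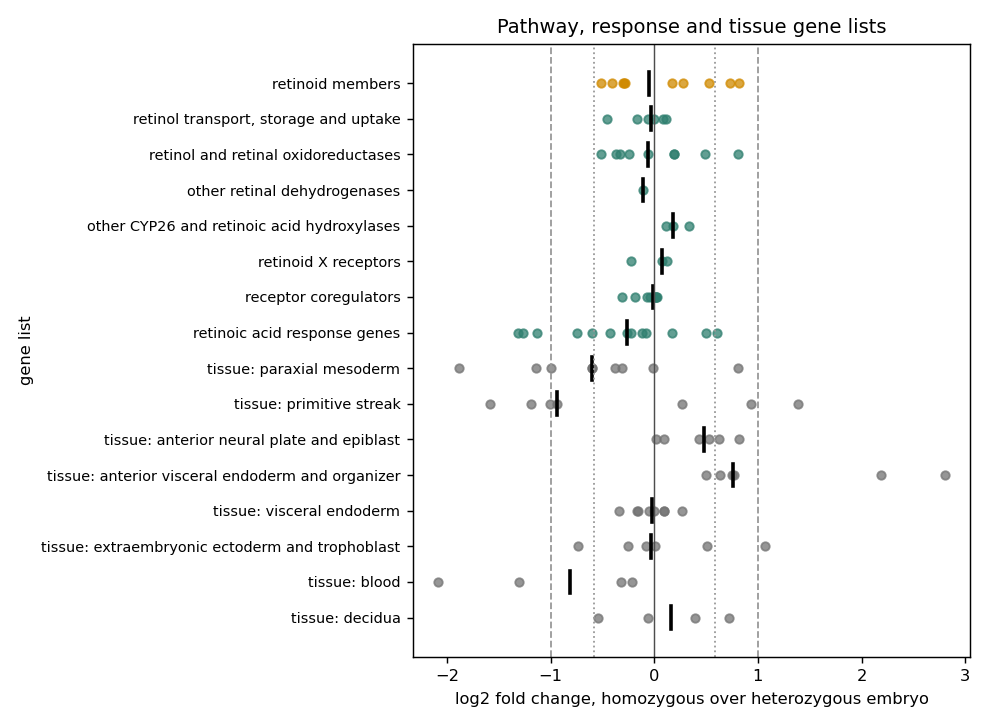
Log2 fold change (horizontal axis, *Dullard*-/- over *Dullard*+/-) of the measured genes of each list, 1 point a gene, with the list's median as a black bar, dotted lines at 1.5-fold and dashed lines at 2-fold. The medians of the pathway lists lie close to 0, though single genes of the 6 lists beside the members run from -0.51 to 0.81. The response genes have a median of -0.26, and the lists of anterior tissue are shifted to the right.

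Markers of the tissues in a whole embryo differed between the embryos as well, and their part in the differences was not tested. Of 9 measured genes of paraxial mesoderm, a tissue that expresses *Aldh1a2* in the mouse, 8 were lower in the homozygote, with a median log2 fold change of -0.60. *Msgn1* was at -1.88 and *Dll1* at -1.14, and *Mesp2*, the single gene that was higher, was at 0.80. The summed signal of the list was 3.30 times the 75th percentile in the homozygote and 4.46 times in the heterozygote. All 6 genes of the anterior neural plate and epiblast were higher, with a median of 0.48, *Otx2* at 0.82, and summed signals of 25.6 in the homozygote and 16.3 in the heterozygote. All 6 genes of the anterior visceral endoderm and organizer were higher too, with a median of 0.76 and summed signals of 42.3 in the homozygote and 24.9 in the heterozygote.

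The 7 genes of the primitive streak went both ways, 3 higher and 4 lower, from *Fgf4* at -1.59 to *Mixl1* at 1.39. Their median was -0.94, with 4 at least 1.5-fold lower and 2 higher. Their summed signal ran the other way, at 4.61 in the homozygote and 3.72 in the heterozygote. Of the 6 blood markers the 4 measured were lower, led by *Hbb-bh1* at -2.08, with a median of -0.81 and summed signals of 1.17 in the homozygote and 2.40 in the heterozygote, and *Hba-x* was not well above background in either. The visceral endoderm list, which shares *Rbp4* and *Ttr* with the pathway lists, had a median of -0.02 and summed signals of 87.5 in the homozygote and 89.5 in the heterozygote. The 6 genes of extraembryonic ectoderm and trophoblast had a median of -0.03 and summed signals of 13.0 in the homozygote and 13.2 in the heterozygote. Single genes of that list went both ways, 3 higher and 3 lower, from -0.74 to 1.07. Of 7 decidua genes 4 were measured, with a median of 0.17 and summed signals of 3.10 in the homozygote and 3.11 in the heterozygote. Of these 4, 2 were higher and 2 lower, from -0.55 to 0.72, and *Prl8a2* and *Dcn* were not well above background in either embryo.

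**Figure D5:**
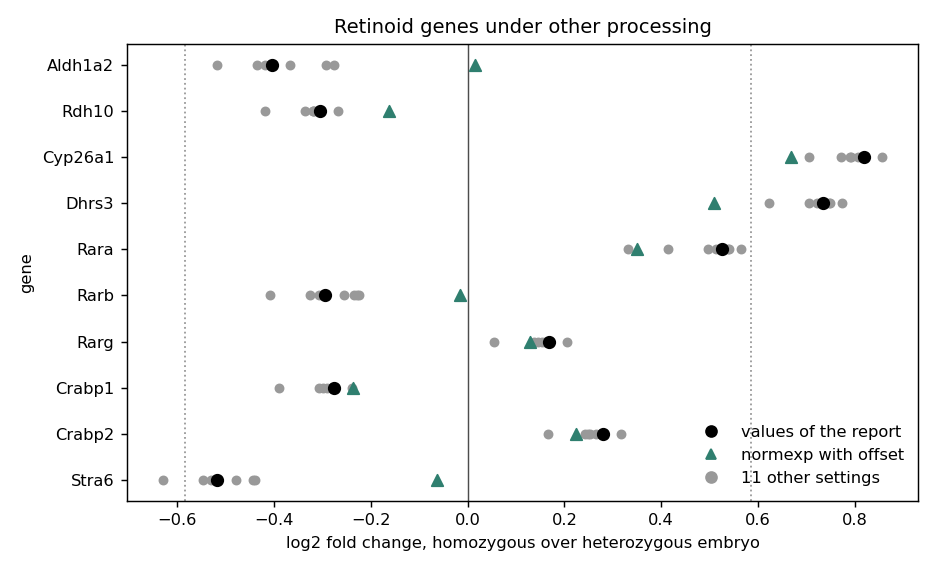
Log2 fold change (horizontal axis, *Dullard*-/- over *Dullard*+/-) of the 10 genes as reported (black), with normexp background correction (triangles) and under 11 other settings (grey), with dotted lines at 1.5-fold. *Cyp26a1* stays between 0.67 and 0.86, and the triangles of the dim genes *Aldh1a2*, *Rarb* and *Stra6* lie near 0.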

How the data were processed

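Cy3-labelled material amplified from the total RNA of each embryo was hybridised, and the methods and the labels differ on the RNA input and the amplification kit. The authors deposited the scanner output of Agilent Feature Extraction 10.10 as spot intensity, background-subtracted and not scaled between arrays. Their processed table, also deposited as linear intensity, equals that signal times 5.20 (*Dullard*-/-) and 4.91 (*Dullard*+/-), with medians of 181 and 189, and the sources used here do not say how these factors were set.

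Signals were scaled to the 75th percentile and put on the log2 scale. Outlier spots were left out (206 of 43020, none of a member), and no spot was saturated. Values were averaged over the spots of a probe and then over those probes of a gene that were well above background in both embryos. RefSeq accessions (GRCm38.p6 table) named 30235 spots and left 12785 unnamed. The error rests on the 40 nearest of 281 replicated probes. The steps were tested on simulated arrays.

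The members and the 15 lists were set with earlier results of these data known. The genes named are all members, *Dullard*, up to 4 genes of each list farthest from no difference, and retinoid genes past 2-fold or measured in 1 embryo alone, except some that are not reported here. *Hoxb1*, *Hba-x*, *Tgm2*, *Ep300*, *Aldh1a1*, *Aldh1a7*, *Prl8a2*, *Dcn* and the genes of the closing section were named after their values were seen.

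The 12 alternatives were scaling to the median, to the 75th percentile of spots well above background in both, quantile normalization, loess (span 0.3) and no scaling, normexp (offset 50) on median signals, since no mean signal was held, no filter, the brightest probe alone, the mean of linear ratios, the median over probes, outlier spots kept and the processed table. Python 3.11.15, numpy 2.4.6, pandas 2.3.3, matplotlib 3.10.9, R 4.3.3 and limma 3.58.1 were used.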

Additional observations from a re-analysis of the deposited data

How the results depend on the processing

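Of the 10 genes, 9 kept their direction under all 12 alternatives, and *Aldh1a2* did so under 11 and turned with normexp, to 0.015. Some alternatives could not change a value. The settings on several probes and on outlier spots cannot move a gene with 1 usable probe and no outlier spot. Dropping the filter cannot move a gene whose probes were all well above background. *Cyp26a1* ran from 0.67 (normexp) to 0.86 (scaling to the median) and *Dhrs3* from 0.51 to 0.77. *Rara* was at 0.33 with its brightest probe, against 0.53. The count of members at least 1.5-fold higher was 1 with normexp, against 2, and the count at least 1.5-fold lower was 1 without scaling, against 0. Normexp adds an offset that pulls dim genes toward no difference by construction, so it cannot decide whether a dim gene differs.

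Over all genes, normexp gave 94 at least 1.5-fold higher and 33 lower, with 10 and 5 past 2-fold, against 579, 498, 132 and 113. Without a filter on dim probes these counts were 1215, 1737, 484 and 778, over 20281 genes. Without scaling 782 were at least 1.5-fold lower, and 90 and 165 were at least 2-fold higher and lower. Of the other pathway genes, 0 were at least 1.5-fold higher with normexp and 4 without the filter, against 1. At least 1.5-fold lower were 1 without scaling and 2 without the filter, both of them past 2-fold, against 0. Of the response genes, 0 were at least 1.5-fold higher without scaling, with normexp, with the brightest probe and with the processed table, against 1. At least 1.5-fold lower were 0 with normexp and 8 without the filter, against 5, and at least 2-fold lower 0 and 5, against 3. Their median was -0.0845 with normexp, against -0.26. The causes were not tested beyond what each setting's construction shows.

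Leaving out an embryo gives no value, with 1 per genotype. No paired analysis was possible because each genotype has 1 embryo.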

Other observations

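Besides *Cyp26a1* and *Rarb*, 29 genes have a promoter with the direct repeat spaced by 5 bases, and 4 of them were measured in both embryos. Of these, 2 were higher and 2 lower in the homozygote. *Blvrb*, a biliverdin reductase, gave 153 in the homozygote and 118 in the heterozygote, a log2 fold change of 0.48, and *Prss27* was at 0.15. *Cfap45*, a ciliary protein gene, gave 17.2 in the homozygote and 28.2 in the heterozygote, a log2 fold change of -0.60, and *Tnfsf13b* was at -0.25.

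The probes of *Ncoa1*, a coactivator of nuclear receptors, did not give like values. The probe well above background in both embryos gave 15.8 in the homozygote and 16.9 in the heterozygote, a log2 fold change of 0.02. Another was well above background in the heterozygote alone and gave 8.55 in the homozygote and 31.2 in the heterozygote. This is 3.38-fold lower in the homozygote after scaling, an observed ratio and not a bound. The third was not well above background in either. The value of the gene rests on the first of these probes.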
